A study of Mus musculus with 4 samples.

Results

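Genes that mark or act in tuft cells, 10 in all and called the tuft genes here, were described across the cell types and libraries of a mouse small-intestine data set: Pou2f3, Trpm5, Rgs13, Sucnr1, Alox5ap, Il25, Dclk1, Avil, Sh2d6 and Lrmp. They were chosen by name, as genes of tuft identity, taste-type signalling and leukotriene synthesis, from a table of 27998 genes, and all 10 were found. Dissociated small intestine of mice on a control diet or a ketogenic diet had been profiled as single cells with 3' tag libraries, 2 libraries for each diet. The labels give no strain, genotype, age, sex or time on diet, and do not give how many animals went into a library, so p-values reflect how much these libraries vary, part of which may be technical. The authors' annotation put 425 of 15053 cells in the tuft class, namely 79 and 122 on control diet and 116 and 108 on ketogenic diet.

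Tuft cells are rare chemosensory cells of the intestinal epithelium. They sense luminal signals through receptors and a cation channel shared with taste cells, and they answer with cytokine, leukotriene and acetylcholine signals that reach immune cells and neighbouring epithelium. Parasites and microbial metabolites such as succinate are their known triggers in the small intestine, and the transcription factor encoded by Pou2f3 is required for their formation.

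The 4 libraries held 3194 to 4896 cells and 27316428 to 34106639 UMIs (unique molecular identifiers, each standing for 1 captured RNA molecule). Median UMIs per tuft cell were 7492 and 5557 on control diet and 8138 and 7604.5 on ketogenic diet. Across libraries, 219 cells carried 1 of 109 barcodes found in more than 1 library, among them 6 tuft cells and no pair of tuft cells. In tuft cells the summed level of 10 further tuft markers, including Ltc4s and Krt18, was 5799 to 6495 CPM (counts of a gene per 1000000 UMIs of the same cells and library). In any other type of any library the sum was at most 1353. Krt18 alone was at 3104 to 3809 CPM in tuft cells, and at a mean of 361 in enterocytes. The annotation was made on cells in which these markers were measured, so the sums describe the tuft label and do not test it. Apart from Kit and Cd79b, the T cell, B and plasma cell, mast cell and stromal genes were at or near 0 in tuft cells: 7 of 7 stromal and endothelial genes and 5 of 7 T cell genes had no UMI. Of the mast cell list only Kit, at 77.6 to 117 CPM, and of the B cell list only Cd79b, at 8.58 to 15.5 CPM, was detected there. Ighm and Igkc of the B and plasma cell list were not among the counted genes, so they could not be seen. Of the myeloid list, Lyz2 had 13 UMIs in ketogenic library 1 and at most 1 in any other library. Itgam had 2 to 4 UMIs a library and Cd68 had 1, while Csf1r, Adgre1, C1qa and C1qb had none. Goblet cell markers summed to 1622 to 3033 CPM in tuft cells, against 72604 to 84964 in goblet cells and 483 to 562 in enterocytes.

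Sequence just upstream of the transcription start was read for 6 of the 10 tuft genes from RefSeq on GRCm38.p6, in 7 windows of 250 bases. Pou2f3, Lrmp, Alox5ap and Il25 were not in that table. POU-domain factors such as the Pou2f3 product are known to bind an octamer, ATGCAAAT, so windows of Sucnr1, with the whole octamer, Avil, with its first 7 letters, and Rgs13, with neither, are shown 5′ to 3′ on the strand of the gene, with these letters in capitals.
Sucnr1: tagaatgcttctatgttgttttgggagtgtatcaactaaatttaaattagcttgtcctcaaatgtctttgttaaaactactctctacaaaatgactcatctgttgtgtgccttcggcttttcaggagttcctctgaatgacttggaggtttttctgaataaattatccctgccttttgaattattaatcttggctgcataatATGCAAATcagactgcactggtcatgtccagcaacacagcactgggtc
Avil: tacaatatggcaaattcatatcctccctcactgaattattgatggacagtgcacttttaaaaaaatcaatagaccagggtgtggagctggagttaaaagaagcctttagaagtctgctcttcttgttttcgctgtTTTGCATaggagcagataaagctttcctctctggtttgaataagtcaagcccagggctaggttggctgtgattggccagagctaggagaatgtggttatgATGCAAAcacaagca
Rgs13: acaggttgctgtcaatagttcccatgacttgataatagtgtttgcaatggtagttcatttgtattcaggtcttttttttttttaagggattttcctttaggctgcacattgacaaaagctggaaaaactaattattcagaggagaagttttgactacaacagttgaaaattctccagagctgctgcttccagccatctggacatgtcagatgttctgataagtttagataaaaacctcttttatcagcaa
The windows lie at chr3:60081619-60081868 on the plus strand, chr10:127000459-127000708 on the plus strand and chr1:144177373-144177622 on the minus strand. The octamer begins 48 bases before the Sucnr1 start. The Avil window holds ATGCAAA on the strand of the gene, 15 bases before the start, and on the opposite strand, where it is written TTTGCAT, 115 bases before it. The whole octamer was in 1 of the 7 windows against 1.60% of 32851 RefSeq windows of this length, and ATGCAAA, which overlaps it, in 2 of 7 against 4.12%. These were 2 of 12 motifs searched on both strands, and they are shown because the matches had been seen. The others were TGCAAAT, which also overlaps the octamer, in 1 window against 3.56%, CACCTG in 1 against 17.2%, AGATAA in 2 against 9.99%, and GATA, which AGATAA contains, in 6 against 53.6%. No member window held AATCACTGC (0.222% of all windows), AATCTC (10.1%), TATAAA (12.4%), TAATTG (7.17%), ATGCTAAT (0.828%) or CAATTAA (2.31%). A match describes the letters of a window and was not tested for binding.

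Tuft cells held most RNA of every one of the 10 genes. Over the 4 libraries together, the share of a gene's UMIs that lay in tuft cells was 97.4% for Rgs13, 95.4% for Lrmp, 95.03% for Alox5ap, 94.9% for Sh2d6, 93.5% for Sucnr1, 93.4% for Dclk1, 92.7% for Il25, 90.04% for Avil, 87.6% for Trpm5 and 82.9% for Pou2f3. Since the annotation was made on cells in which these genes were measured, this is a description and was not tested.

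The transcription factor gene Pou2f3 (chromosome 9, 43123939 to 43210369, minus strand, positions from GENCODE M21 on GRCm38) was at 232 and 203 CPM in tuft cells of the control libraries and at 241 and 204 in those of the ketogenic libraries. The diets overlapped. A UMI of Pou2f3 was seen in 71.8% of the 425 tuft cells (exact 95% binomial interval 67.2% to 76.0%, which like every interval here covers counting error only).

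Trpm5 encodes the calcium-activated cation channel at the end of the taste transduction cascade (chromosome 7, 143069153 to 143094642, minus strand). Its tuft level was 257 and 329 CPM on control diet and 310 and 309 on ketogenic diet, so both ketogenic libraries lay between the controls. Rgs13, a regulator that speeds G protein shut-off (chromosome 1, 144138654 to 144177372, minus strand), was at 2532 and 2076 on control diet and at 2372 and 1897 on ketogenic diet. Within each diet its libraries differed more than the diet means did. Sucnr1 encodes the receptor for succinate (chromosome 3, 60081869 to 60087566, plus strand). It rested on few UMIs in tuft cells, 2 and 11 on control diet and 14 and 16 on ketogenic diet, or 3.43, 15.5, 16 and 18.6 CPM. One control library was low, and the other lay next to the ketogenic ones.

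Alox5ap encodes the membrane protein that presents arachidonic acid to the lipoxygenase for leukotriene synthesis (chromosome 5, 149264767 to 149288153, plus strand). Its tuft level was 881 and 915 CPM on control diet and 831 and 853 on ketogenic diet. Il25, the cytokine by which tuft cells activate innate lymphoid cells (chromosome 14, 54932695 to 54935837, plus strand), had 9 and 13 UMIs in tuft cells on control diet and 15 and 14 on ketogenic diet. In CPM these were 15.4, 18.3, 17.1 and 16.3, with the ketogenic libraries between the controls.

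Dclk1, a kinase with doublecortin domains and a common tuft marker (chromosome 3, 55242364 to 55539068, plus strand), was at 774 and 723 CPM in control tuft cells and at 750 and 690 in ketogenic ones. Avil encodes advillin, an actin-binding protein of the gelsolin family (chromosome 10, 127000709 to 127020994, plus strand). It was at 566 and 628 on control diet and at 553 and 524 on ketogenic diet, with both ketogenic libraries under both controls. Sh2d6, which encodes a protein with an SH2 domain (chromosome 6, 72513641 to 72521707, minus strand), was at 554 and 539 on control diet and at 503 and 502 on ketogenic diet, again without overlap. Lrmp, which encodes a membrane protein of the endoplasmic reticulum (chromosome 6, 145115653 to 145174934, plus strand), was at 1504 and 1562 on control diet and at 1406 and 1695 on ketogenic diet. The Lrmp libraries of the diets overlapped.

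**Figure D1:**
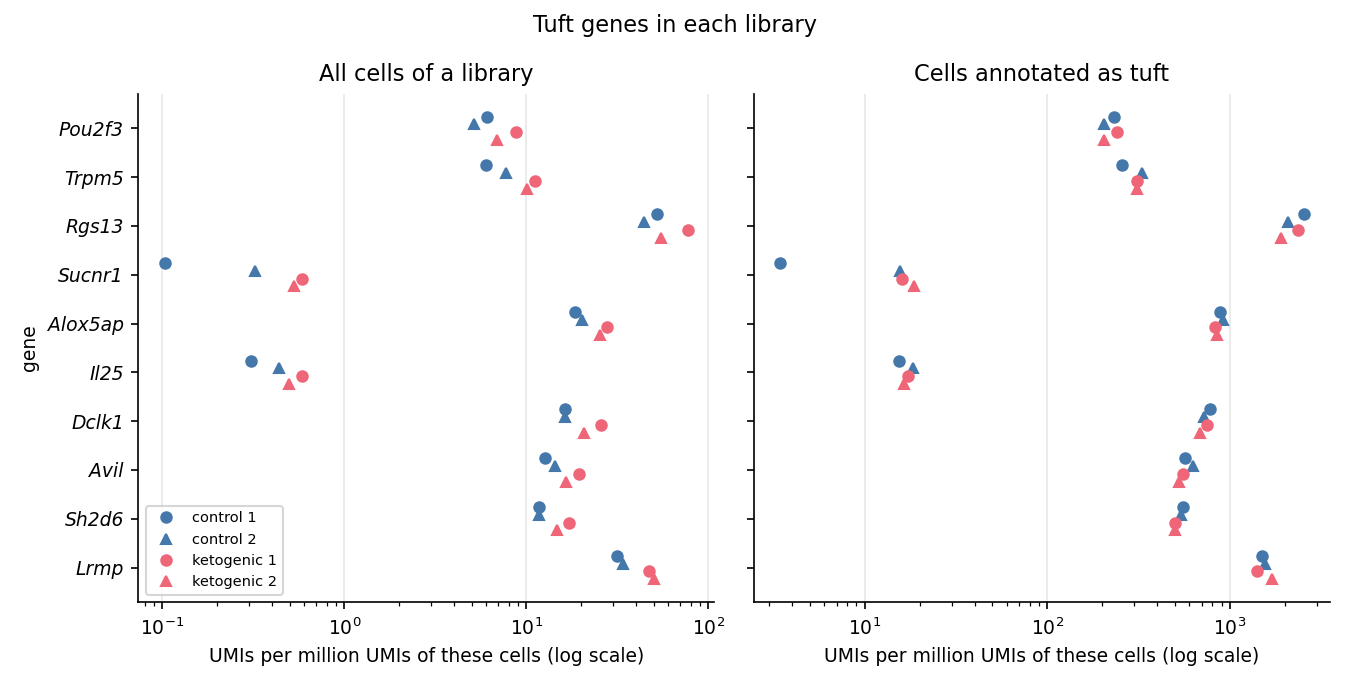
Level in CPM (log scale) of each of the 10 tuft genes in all cells (left) and in tuft cells (right). Each point is 1 library, blue for control and red for ketogenic diet. In all cells both ketogenic points lie right of both control points for every gene, and in tuft cells they do so for Sucnr1 alone.

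Most tuft cells carried several of these RNAs at once. The median tuft cell had UMIs of 7 of the 10 genes, 386 of 425 (90.8%) had 4 or more, and 1 had none. The share of tuft cells with a UMI was 92.5% for Lrmp, 89.2% for Avil, 80.5% for Sh2d6, 79.5% for Rgs13, 78.1% for Trpm5, 75.1% for Dclk1 and 74.6% for Alox5ap. It was 11.3% for Il25 and 7.29% for Sucnr1. After thinning each cell to 2000 UMIs, which left out 6 tuft cells, the shares were 82.6% for Lrmp, 70.4% for Rgs13, 34.6% for Pou2f3, 4.06% for Il25 and 3.34% for Sucnr1. In enterocytes, which should lack these genes, the unthinned shares ran from 0.0118% for Il25 to 0.909% for Lrmp, at a median depth of 7342 to 9629 UMIs in the 4 libraries. Cells with 4 or more of the genes were few outside the tuft class: 8 of 1989 goblet, 4 of 188 Paneth, 2 of 1583 stem, 2 of 1902 transit amplifying, 2 of 8474 enterocyte and 0 of 492 enteroendocrine cells. Doublet scores in the top 6% were held by 5 of these 8 goblet cells, 0 of the 4 Paneth cells, 1 of the 2 stem cells, 0 of the 2 transit amplifying cells, both enterocytes and 41 of the 386 tuft cells.

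**Figure D2:**
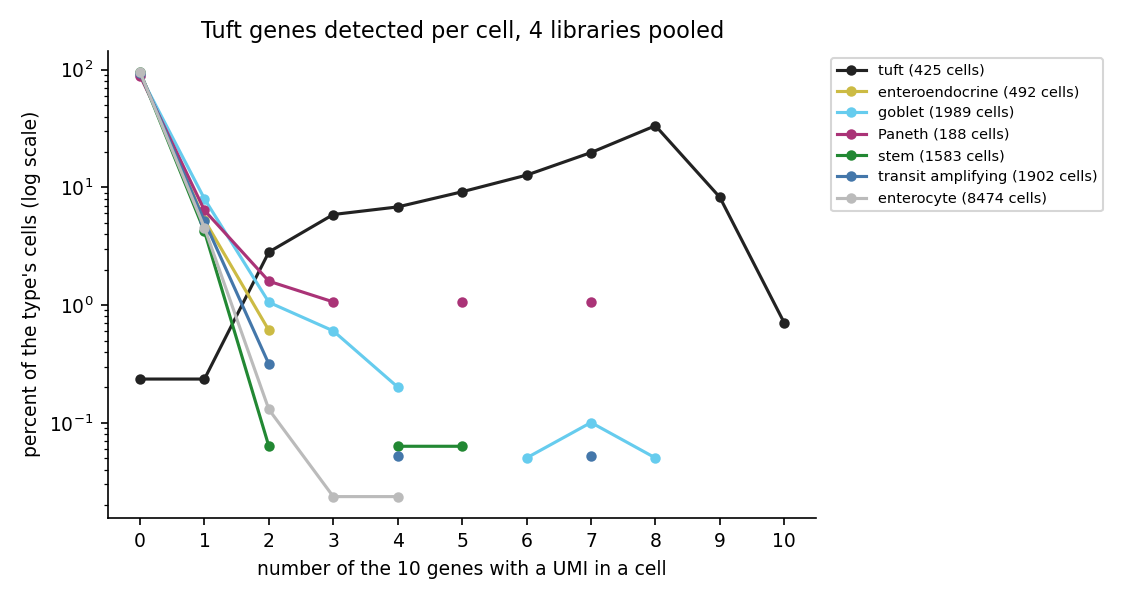
Percent of cells (log scale) of each annotated type against the number of the 10 tuft genes with a UMI in a cell, 4 libraries pooled. The tuft curve peaks at 8 genes, and the curves of the other types start at 88.8% to 95.6% at 0 genes. Numbers of genes found in no cell of a type are not drawn.

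Outside tuft cells the 10 genes were low but not equally so. Relative to a gene's own level in tuft cells, enterocytes ranged from 0.047% (Rgs13) to 0.234% (Trpm5). Goblet cells, which secrete mucus, were at 1.84% for Pou2f3, 1.04% for Avil and 0.767% for Trpm5, and at 0.134% for Rgs13. Pou2f3 made up 3.15% of the UMIs of the 10 genes in tuft cells (exact 95% interval 2.92% to 3.39%), 15.3% in goblet cells (12.1% to 19.1%, 66 of 430 UMIs), 7.95% in enterocytes and 14.5% in stem cells (7.70% to 23.9%, 12 of 83 UMIs). Per library, its goblet share was 23.5% and 11.5% on control diet and 12.1% and 13.8% on ketogenic diet, in every library above its tuft share of 2.90% to 3.45%. Avil made up 8.10% in tuft, 22.3% in goblet, 18.9% in Paneth and 26.5% in enteroendocrine cells (9 of 34 UMIs) and 10.7% in enterocytes, while Rgs13 made up 31.5% in tuft cells, 11.2% in goblet cells and 16.1% in enterocytes. The pooled share of Pou2f3 was above its tuft share in all 6 other types, the lowest being 5.88% in enteroendocrine cells (2 of 34 UMIs). Avil was below its tuft share in stem cells (6.02%) and transit amplifying cells (6.77%). Without the 8 goblet cells that held 4 or more of the genes, the goblet share of Pou2f3 was 18.1% (13.9% to 23.0%) and that of Avil 26.2%. Of 40 goblet cells with a UMI of Pou2f3, 18 had no other of the 10 genes and 6 had 3 or more others. This pattern was noticed in the values and was not tested.

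Paneth cells, which secrete antimicrobial peptides, had the highest level outside tuft cells for 7 of the 10 genes, up to 3.42% of the tuft level for Pou2f3. Of the Paneth UMIs of the 10 genes together, 72.1% lay in 4 of 188 Paneth cells. Without those cells 2 of 27 Paneth UMIs remained for Lrmp and 2 of 16 for Dclk1, but 6 of 11 for Pou2f3 and 11 of 23 for Avil. The remaining UMIs lay in 5 of 184 cells for Pou2f3 and in 5 for Avil. Of the 11 of Avil, 7 were in 2 cells of control library 1. The median depth of the 4 Paneth cells set aside was 3850 UMIs against 6577.5 in the other Paneth cells.

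**Figure D3:**
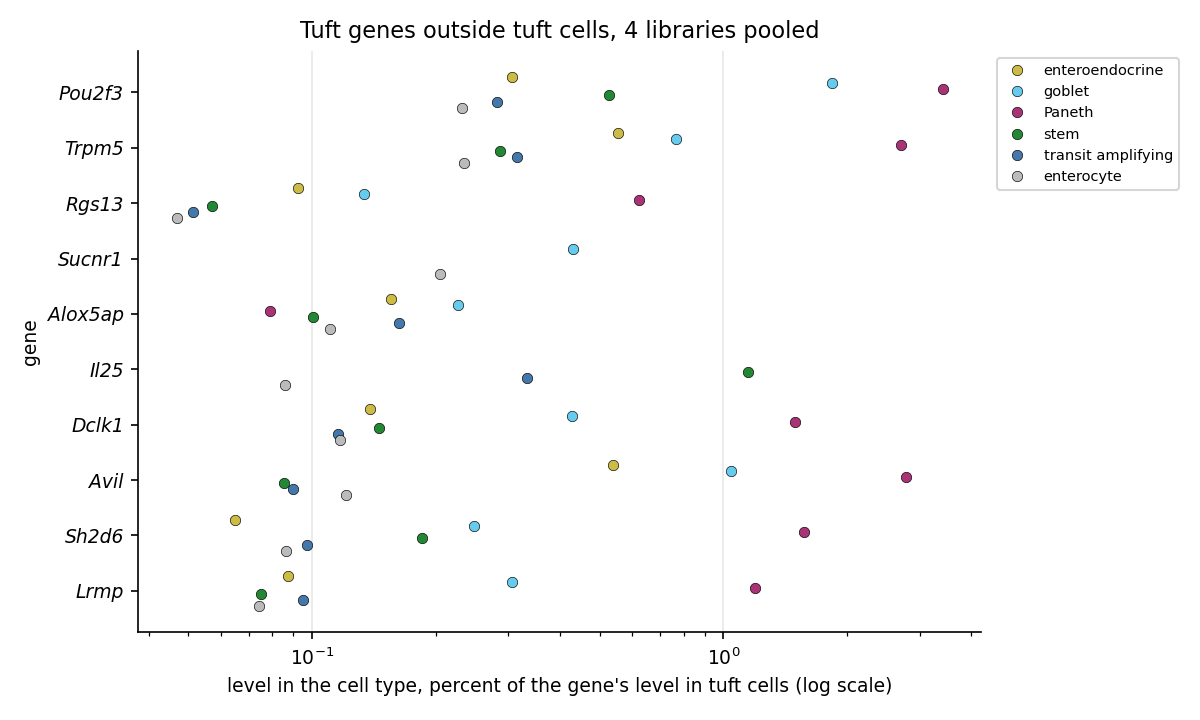
Level of each tuft gene in the 6 other annotated cell types as a percent of its level in tuft cells (log scale), 4 libraries pooled. Genes without a UMI in a type are not drawn. Paneth and goblet points lie farthest right for Pou2f3, Trpm5 and Avil, and enterocyte points lie between 0.047% and 0.234%.

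Summed over all cells of a library, each of the 10 tuft genes was higher in both ketogenic libraries than in both control libraries, yet none passed the adjusted test. Together they made up 156 and 155 CPM on control diet and 236 and 201 on ketogenic diet. Rgs13 was at 52.1 and 44.4 on control diet and at 77.5 and 55.3 on ketogenic diet, which is 0.45 ± 0.18 on the log2 scale (SE, 2 libraries a diet; adjusted p = 0.437, edgeR quasi-likelihood test). Lrmp was at 31.7 and 34.1 on control diet and at 47.2 and 50.1 on ketogenic diet, 0.55 ± 0.09 (adjusted p = 0.121, edgeR). Trpm5 was at 5.996 and 7.77 against 11.1 and 10.1, a log2 difference of 0.60 ± 0.17 (adjusted p = 0.324, edgeR). The other log2 fold changes were 0.39 for Avil, 0.42 for Sh2d6, 0.45 for Alox5ap, 0.47 for Pou2f3, 0.49 for Dclk1, 0.49 for Il25 and 1.31 for Sucnr1, whose SE was 0.57. Leaving out 1 library at a time gave 0.15 to 0.69 for Rgs13, the lowest without ketogenic library 1, and 0.74 to 2.37 for Sucnr1, the lowest without control library 1.

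For 10 of 10 genes the libraries of the diets did not overlap, where 24.8% of the 12784 genes tested lay above in the same way. Of all genes tested, 0.172% passed the adjusted test in either direction. At an unadjusted p under 0.05, 8 of the 10 were higher in ketogenic libraries, against 5.62% of all genes, with Sucnr1 and Il25 the exceptions. DESeq2, which called 1.77% of its genes, called Lrmp alone of the 10. Their median log2 fold change was 0.48 against 0.01 of all genes. The 10 genes are not 10 separate observations, since their UMIs come mostly from the same 425 cells. With no filter on low counts edgeR called Lrmp (adjusted p = 0.0117), in a setting that called 407 of 17972 genes.

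The share of cells annotated as tuft was 2.23% and 2.49% on control diet and 3.63% and 3.16% on ketogenic diet. The mean was 2.36% ± 0.19 against 3.40% ± 0.33 (SD, n = 2 each). The log2 ratio was 0.52 ± 0.24 (SE), which did not pass the test over cell types (adjusted p = 0.250, edgeR on cell numbers). An exact permutation test gave p = 0.333, the smallest that 2 against 2 libraries allow. In UMIs, tuft cells made up 2.00% and 2.08% of control libraries and 3.20% and 2.83% of ketogenic libraries, a log2 ratio of the means of 0.57. The all-cell fold change lay within 1 SE of this ratio for Rgs13, Dclk1, Trpm5, Lrmp, Il25 and Pou2f3, more than 1 SE under it for Avil, Sh2d6 and Alox5ap, and more than 1 SE above it for Sucnr1. The fold changes include the TMM scaling of edgeR and the ratio does not. Without that scaling, the log2 ratio of mean levels was 0.46 for Alox5ap, within 1 SE of the UMI ratio. It was 0.41 for Avil and 0.44 for Sh2d6, still more than 1 SE under. The spread of the UMI ratio between libraries was not counted. The part of the tuft share in those fold changes was not tested.

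Within tuft cells none of the 10 genes passed the test. The log2 fold change of 9 lay between -0.17 and 0.05, and that of Sucnr1 was 0.75. Together they made up 7319 and 7009 CPM of tuft cells on control diet and 6998 and 6709 on ketogenic diet. Log2 fold changes were -0.17 ± 0.11 for Avil, -0.14 ± 0.11 for Sh2d6, -0.13 ± 0.12 for Rgs13, -0.12 ± 0.10 for Alox5ap, -0.08 ± 0.10 for Dclk1, -0.05 ± 0.38 for Il25, -0.01 ± 0.10 for Lrmp, 0.02 ± 0.15 for Pou2f3, 0.05 ± 0.14 for Trpm5 and 0.75 ± 0.53 for Sucnr1 (each ± SE over 2 libraries a diet). Adjusted p-values of edgeR ran from 0.921 to 1.00, and none of the 10 had an unadjusted p under 0.05. The median was -0.06 with 3 of 10 above 0. Both ketogenic libraries lay above both controls for 1 gene, Sucnr1, against 18.8% of the 6963 genes tested, and under both for Avil, Sh2d6 and Alox5ap, against 14.7%. The test called 0.0144% of genes in tuft cells, and 0 of the 10. For Sucnr1, leaving out 1 library at a time gave 0.13 to 2.27, the former without control library 1, which held 2 UMIs.

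In the cells other than tuft, 8 of the 10 genes passed the filter on low counts, and 0 of 8 passed the test (0.174% of all genes did). Sucnr1 and Il25 were too low to enter. Both ketogenic libraries lay above both controls for 4 of the 8, Avil, Lrmp, Trpm5 and Rgs13, against 23.2% of genes. The largest of the log2 fold changes was that of Trpm5, 0.49 ± 0.30, and the lowest that of Pou2f3, -0.11 ± 0.33. The difference of the diet effect between tuft and other cells was tested as the interaction of diet and class over 8 sums, blocked by library. None of the 10 passed (0.191% of genes did, and adjusted p was 1 for each of the 10), and 0 of 10 had an unadjusted p under 0.05. Avil came nearest, with an interaction of -0.49 ± 0.25.

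**Figure D4:**
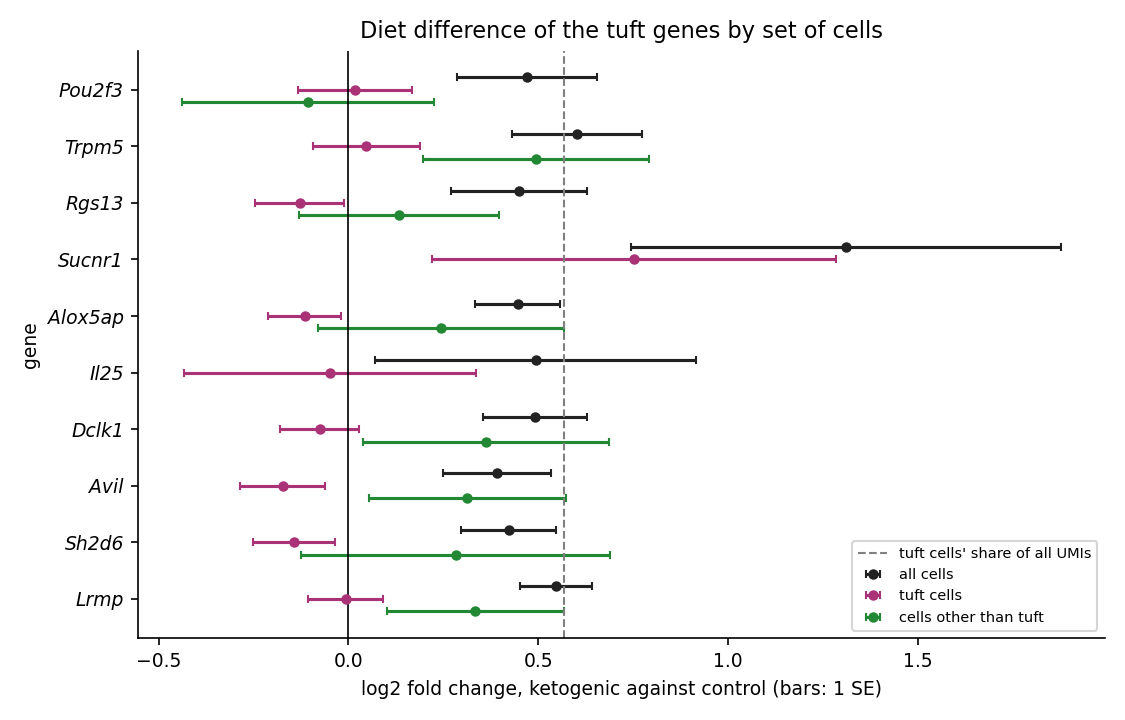
Log2 fold change of each tuft gene, ketogenic against control, from edgeR with bars of 1 SE, in all cells (black), tuft cells (purple) and cells other than tuft (green). The dashed line is the log2 ratio of the tuft cells' mean share of UMIs, 0.57, which unlike the points has no TMM scaling. The black points of 9 genes lie between 0.39 and 0.60 with Sucnr1 at 1.31, while purple points other than that of Sucnr1 lie between -0.17 and 0.05.

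Of single other cell types, only goblet cells and enterocytes had any of the 10 genes past the filter. In enterocytes 7 entered and 0 were called (0.18% of genes were). All 7 had a log2 fold change above 0, from 0.33 to 1.08 (median 0.62 against 0.02 of all genes), and none had an unadjusted p under 0.05. Avil, with the largest, was at 0.330 and 0.565 CPM on control diet and at 1.07 and 0.853 on ketogenic diet (1.08 ± 0.47, adjusted p = 0.513, edgeR). In goblet cells 6 entered and 0 were called (0.521% of genes were). The log2 fold change was above 0 for 1 of them, Dclk1 (0.47 ± 0.60), with a median of -0.58 against 0.00064 of all genes, and 2 were lower at an unadjusted p under 0.05, against 4.54% of genes: Rgs13 (-1.29 ± 0.46) and Pou2f3 (-0.96 ± 0.42). Goblet Rgs13 rested on 12 and 21 UMIs on control diet and 9 and 6 on ketogenic diet, and on 9, 10, 6 and 6 without the goblet cells that held 4 or more of the genes. Goblet Pou2f3 was at 7.34 and 3.58 CPM on control diet and at 3.52 and 2.08 on ketogenic diet. Without those cells it was at 5.28 and 2.83 against 3.31 and 2.08, and the diets overlapped.

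Related genes were counted in the same fits. None of 6 lists of related genes had a gene that passed the test in all cells or in tuft cells. The lists include Pou2f3, Trpm5, Sucnr1, Rgs13, Alox5ap and Il25, and some genes, such as Rgs2, are in several lists. Their counts and medians are therefore not separate from those of the tuft genes or from each other. Of 24 genes of tuft transcription and identity, 23 were tested in each; 20 were higher in all cells (median log2 fold change 0.40) and 8 in tuft cells (median -0.09). Cd24a, a surface glycoprotein, was at 5713 and 5246 CPM in control tuft cells and at 5526 and 5358 in ketogenic ones. Sox4, a transcription factor of the SOX family, was at 1493 and 1200 against 1192 and 1318, and Krt18, a keratin, at 3104 and 3809 against 3272 and 3319. The diets overlapped for all 3.

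Of 25 taste-type signalling genes, 15 were tested, 12 higher in all cells (median 0.45) and 8 in tuft cells (median 0.00066). Gng13, a G protein gamma subunit of taste cells, was at 426 and 414 CPM in control tuft cells and at 448 and 355 in ketogenic ones, and Atp2a3, a calcium pump, at 304 and 250 against 279 and 262. Rgs2, another G protein regulator, was the single gene of the lists whose diet effect differed between tuft and other cells (interaction -0.85 ± 0.17, adjusted p = 0.00123, edgeR). It was at 539 and 624 against 600 and 584 CPM in tuft cells, and at 10.3 and 6.14 against 14.2 and 14.8 in the other cells. Within tuft cells its log2 fold change was 0.00066. No gene of this list was called in the other cells alone (lowest adjusted p = 0.319, edgeR). For the interaction edgeR called 24 of 12591 genes and DESeq2 1 of 17972, and Rgs2 was not followed through the alternatives.

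Of 13 eicosanoid genes, 8 were tested in all cells, with 7 higher (median 0.34), and 7 in tuft cells, with 0 higher (median -0.12). Ltc4s, which makes leukotriene C from the product of the Alox5ap pathway, was at 668 and 766 against 706 and 691 CPM in tuft cells. Hpgds, a prostaglandin D synthase, was at 357 and 330 against 361 and 277, and Pla2g4a, a phospholipase that frees arachidonic acid, at 209 and 241 against 225 and 195. Of 12 type 2 immune and acetylcholine genes, 8 were tested in all cells (6 higher, median 0.19) and 6 in tuft cells (3 higher, median -0.02). The interleukin receptor gene Il13ra1 was at 630 and 529 against 630 and 548 in tuft cells. Of the 7 genes of a neuron-like tuft subset, 6 were tested in all cells (4 higher) and 5 in tuft cells (2 higher). Among them Nrep was at 196 and 178 against 279 and 299 CPM in tuft cells, without overlap (log2 fold change 0.61 ± 0.14, adjusted p = 0.391, edgeR). In all cells its adjusted p was 0.0538 at a log2 fold change of 1.015. Of the 7 genes of an immune-like subset, 6 were tested in all cells (5 higher) and 5 in tuft cells (1 higher), and Spib, an ETS transcription factor, was at 407 and 364 against 379 and 351.

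Tuft cells were not uniform in the 10 genes. Rgs13 had no UMI in 87 of 425 tuft cells, 21.5% and 15.6% of those on control diet and 20.7% and 25% of those on ketogenic diet. In these cells Dclk1 was at 247 CPM against 839 in tuft cells with Rgs13, Alox5ap at 291 against 994, Sh2d6 at 231 against 586 and Avil at 287 against 627. Lrmp was at 1110 against 1640, and Pou2f3 at 193 against 226. Alox5ap, Dclk1, Sh2d6, Avil, Trpm5 and Lrmp were lower without Rgs13 in each of the 4 libraries, whereas Pou2f3 was lower in 2 and higher in 2.

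Sox4 went the other way, at 2622 CPM without Rgs13 against 991 with it, and was higher in each of the 4 libraries. Spib was at 160 against 420. The 7 transit amplifying markers, genes of dividing cells, summed to 225 CPM without Rgs13 against 106 with it, but their ratio varied between libraries, at 2.31 and 0.902 on control diet and 3.69 and 1.58 on ketogenic diet. This split, and Sox4, Spib and the markers of dividing cells, were chosen after the values were seen, so the figures are a description and no test was made. Cells without Rgs13 were also shallower, with a median of 6012 UMIs against 7317, though in ketogenic library 2 they were deeper, at 8303 against 7460. With each cell thinned to 2000 UMIs, Dclk1 had 0.734 UMIs per cell without Rgs13 against 2.14 with it, Alox5ap 0.677 against 2.27 and Pou2f3 0.371 against 0.437. In control library 1 the thinned difference of Sh2d6 turned, at 1.04 against 1.02, and that of Dclk1 was small, at 1.48 against 1.79. With the split set at 0 to 2 UMIs of Rgs13, the ratio of the lower to the higher set was 0.44 for Dclk1 in place of 0.29, 0.32 for Alox5ap in place of 0.29 and 0.82 for Pou2f3 in place of 0.85.

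**Figure D5:**
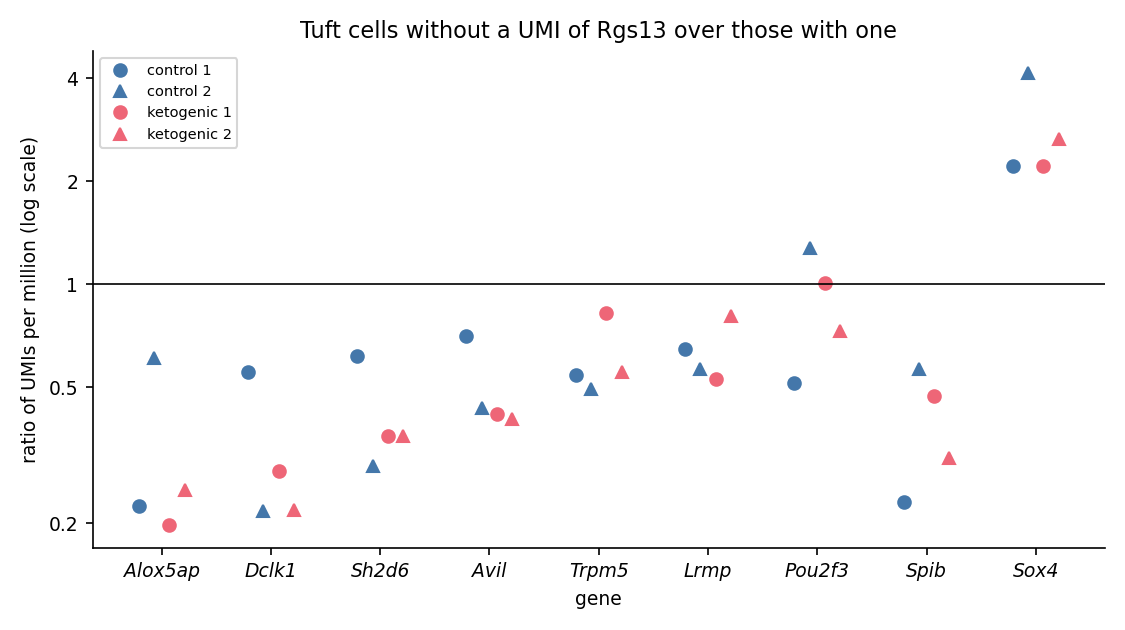
Ratio of CPM in tuft cells without a UMI of Rgs13 to that in tuft cells with one (log scale), for 7 tuft genes, Spib and Sox4; each point is 1 library. Alox5ap, Dclk1, Sh2d6, Avil, Trpm5, Lrmp and Spib lie under 1 in every library, Pou2f3 lies on both sides and Sox4 lies above 2.

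Il25 and Sucnr1 were each seen in a minority of tuft cells. Of the 48 tuft cells with a UMI of Il25, 44 also had Dclk1 and 44 Rgs13, and of the 31 with Sucnr1, 26 had Dclk1 and 27 Rgs13. Both Il25 and Sucnr1 were found in 3 cells. Cells with either were deeper than those without, with medians of 8047 against 6957 UMIs for Il25 and 8340 against 7042.5 for Sucnr1.

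Genes whose pattern was most like that of the 10 tuft genes were ranked by the Pearson correlation with their mean log2 level over the 28 sums of cell type and library, among 5496 genes. These sums share libraries and the tuft annotation, and the correlation is a description. Hmx2, a homeobox gene, came first (0.99), followed by Ackr4, Nebl, Gng13, Bmx, Pik3cg, Inpp5d, Pik3r5, Ccdc129 and Hmx3 (0.97). Hmx2 was at 312 and 278 CPM in control tuft cells and at 319 and 371 in ketogenic ones, with at most 3.46 in any other type and library. Hmx3 was at 54.9 and 81.9 against 65.1 and 72.2.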

How the data were processed

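Raw UMI counts per gene and cell, as deposited by the authors in 1 matrix of 15053 cells with a table of libraries and cell types, were the only values used. Per the submitters' processing notes, the tools included Cell Ranger 2.1.0, with mm10 as the genome build. The annotation release and the methods of cell filtering, doublet removal and cell type naming were not given in the sources used here. All of the authors' cell types were kept.

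For each library, sums of counts were taken over all cells, tuft cells, other cells and each other type, and tested with edgeR 4.0.16 in R 4.3.3 (quasi-likelihood test, TMM, filterByExpr by diet, Benjamini-Hochberg adjustment over all genes that passed, threshold 0.05). Printed levels are CPM without TMM scaling. A standard error is the log2 fold change divided by the square root of F. The edgeR test was also run on simulated counts drawn with edgeR's own estimate of spread, which cannot show how real libraries of a diet vary. Same-diet libraries were not copies, since a chi-square of their tuft counts over genes was 1.69 (control) and 1.57 (ketogenic) times its degrees of freedom.

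Scrublet in scanpy 1.11.5 called 0.0204% to 0.188% of cells in a library, too few to be used, so the 6% with the highest scores were left out as an alternative. Further settings tried were thinned sums, cells under 10% mitochondrial UMIs, no low-count filter, RLE size factors in edgeR, DESeq2 1.42.0, the replicate number as a block, and each library left out in turn.

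The members and lists were chosen with earlier results of these data known. Named list genes are those past the threshold or, failing that, up to 3 per list with the highest tuft level, and the 10 genes of most like pattern were ranked among those with at least 10 UMIs in each tuft sum. Rgs2 in the interaction and the genes of the Rgs13 split other than members were chosen after their values were seen. Results for some genes outside the 10 are left out of the text, though counts include them.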

Additional observations from a re-analysis of the deposited data

How the results depend on the processing

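None of the 10 tuft genes was called in tuft cells, in other cells, in single other types or in the difference between tuft and other cells under any alternative run there. In all cells the number called was 0 in the main fit, 1 with no filter on low counts and 1 with DESeq2 (Lrmp in both). Those were not the only alternatives with a call, since Trpm5 passed the threshold under at least 1 other. The fit with no filter called 407 of 17972 genes and DESeq2 213 of 12048, against 22 of 12784 in the main fit. All-cell log2 fold changes of the 10 genes kept their sign under each of 11 alternatives, but their size moved: Rgs13 ranged from 0.15 (without ketogenic library 1) to 0.69 (without ketogenic library 2) and Sucnr1 from 0.74 (without control library 1) to 2.37 (without control library 2). The tuft share of cells was not called under any alternative, with log2 ratios of 0.42 to 0.62 when 1 library was left out.

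In tuft cells 19 of 109 alternative values changed sign, all of them uncalled. The values of changed sign lay between -0.12 and 0.26. For Pou2f3 thinned sums gave -0.038. For Lrmp no filter gave 0.0081, the mitochondrial limit 0.023, leaving out high doublet scores 0.035 and thinned sums 0.015. For Trpm5 the last 3 of these settings gave -0.017, -0.0071 and -0.017, and for Il25 the mitochondrial limit gave 0.26. Leaving out 1 library gave -0.12 to 0.16 for Pou2f3, -0.15 to 0.0095 for Dclk1, -0.12 to 0.11 for Lrmp, -0.12 to 0.25 for Trpm5, -0.31 to 0.049 for Rgs13 and -0.16 to 0.10 for Il25. The cause was not tested.

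Replicate numbers are shared between the diets, but same-numbered libraries did not deviate together (correlation of deviations -0.01 in all cells and in tuft cells), so the numbers were not taken as pairs. With the replicate block, 0 of the 10 genes were called in all cells and 0 in tuft cells, the tuft share had a log2 ratio of 0.52 (adjusted p = 0.198, edgeR), and the number of genes called was 69 in place of 22 in all cells and 4 in place of 1 in tuft cells. The count of all genes called in all cells was 407 of 17972 with no filter and 213 of 12048 with DESeq2. With 2 libraries a diet and 79 to 122 tuft cells in each, Il25 and Sucnr1 rest on 2 to 16 UMIs a library in tuft cells, where only large differences would be detectable. A diet left with 1 library was assumed to vary like the other diet.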
